A study of Mus musculus with 28 samples.

Results

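Wild-type mouse liver collected 24 h and 48 h after methyl methanesulfonate (MMS) was compared with untreated wild-type liver. The late group held 4 arrays, 2 at 24 h and 2 at 48 h, and the untreated group held 3, out of 28 arrays in the series. The members were chosen by their titles alone. The other arrays used here as references were wild-type (WT) liver at 6 h (n = 2) and 12 h (n = 3) after MMS, untreated Aag null liver (n = 4), and Aag null liver at 24 h (n = 4) and 48 h (n = 3) after MMS. Each array measured total RNA of a liver on the Affymetrix MG-U74Av2 platform. The labels give no strain, age, sex, dose, route or hour of collection, and do not describe the null allele. Nothing in them says whether replicates came from separate animals. The p-values measure the spread within the groups of all 28 arrays, not that of the compared arrays alone, and this spread may be technical. The number of arrays limits the precision.

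MMS is an alkylating agent that transfers methyl groups to DNA bases. Aag, encoded by Mpg, is the DNA glycosylase that starts base excision repair by cutting out methylated purines. Liver responds to chemical injury with metal-binding proteins, chaperones of the endoplasmic reticulum and acute phase plasma proteins, and its metabolic genes also follow the circadian clock. In that clock, activators bind E-box sequences and drive repressors such as Nr1d2 and Cry1 and output factors such as Dbp and Tef, which bind D-box sequences in target genes. Bile acid synthesis, mitochondrial fatty acid oxidation and conjugation by glutathione transferases are among the liver functions with daily rhythm.

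The arrays differed in a technical measure that ran with treatment. Foreign transcripts spiked in as hybridization controls averaged 10.87 to 11.65 on the log2 scale in the 3 WT untreated arrays and 7.19 to 8.49 in the 4 late arrays. Over all arrays this measure split at a gap of 1.03 into a high set of 5 and a lower set of 23. The high set joined Aag untreated replicates 3 and 4 to the 3 WT untreated arrays. Aag untreated replicates 1 and 2 and all treated arrays made the lower set. Aag untreated replicate 3 also stood above the largest gap in the level of Cyp2b9, a female-typical transcript, as did Aag 24 h replicates 1 and 2. No other gene was used for this split. The difference between 3′ and 5′ Gapdh probe sets was 0.63 to 0.92 in WT untreated and -0.21 to 0.21 in late arrays. In WT liver array set and treatment cannot be told apart. Results are therefore given against the WT untreated arrays, then with array set as a term in the fit, which only the Aag untreated arrays inform, then against Aag untreated replicates 1 and 2, which share the array set of the late arrays but not their genotype. The 4 late arrays resembled each other, with correlations across genes of 0.986 within 24 h, 0.960 within 48 h and 0.967 to 0.979 between the times, against 0.891 to 0.941 with the untreated arrays. Albumin (Alb), the main hepatocyte product, was 12.18 to 12.46 in late and 12.13 to 12.46 in untreated arrays. Alb does not stand for all hepatocyte markers. Of 11 tested by the fit described next, 2 were higher and 3 lower, beside 11.2% and 11.3% over all genes.

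Of 5487 genes tested, 1235 passed the test in late against untreated liver (limma, adjusted p under 0.05), 22.5% of those tested. Of these 615 rose (11.2%) and 620 fell (11.3%). On the unscaled deposited values 1434 passed, 1046 upward and 388 downward, and the median difference over all genes was 0.13 against 0.03 after scaling. At 24 h alone 759 genes passed (13.8%) and at 48 h alone 792 (14.4%). A gene was taken as common to both late times where it passed with the same sign at 24 h, at 48 h and in the pooled group, and where none of the 4 late arrays overlapped the 3 untreated arrays. This held for 505 genes (9.2%), 202 higher (3.68%) and 303 lower (5.52%). The median change was 0.77 on the log2 scale among the risers and -0.79 among the fallers. Both times share the untreated arrays, so the count is no test of agreement between them. Leaving out WT 24 h replicate 1 or 2 gave 204 or 194 common genes, and leaving out WT 48 h replicate 2 gave 223. The count at 24 h alone was 240 and 220 without replicates 1 and 2, and that at 48 h was 482 and 305.

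The references left far fewer genes. A fit with array set as a term called 240 genes (4.37%), 2.5% higher and 1.88% lower. Of these 107 (1.95% of genes tested) were common genes with unchanged sign, 46 higher (0.838%) and 61 lower (1.11%). The difference was larger with the term than without it for 81 of the 107, and for 3146 of all 5487 genes tested. Passing with array set as a term is thus not a stricter measure of the same difference. Against Aag untreated replicates 1 and 2, 52 genes passed (0.948%), 33 higher (0.601%) and 19 lower (0.346%), of which 27 were common genes with unchanged sign, 16 higher and 11 lower. All these comparisons use the same 4 late arrays. The fit with array set as a term also uses the untreated arrays of both other comparisons. The late arrays stood apart from all 7 untreated arrays of both genotypes for 168 of the 505 genes (33.3%), 48 higher and 120 lower. Of all genes tested 4.88% met this criterion, which was set after the data were seen. The 505 were already chosen to stand apart from the 3 WT untreated arrays. A higher share among them was therefore largely built in. At least 1 of the 2 Aag untreated arrays of the high set, which had no MMS, reached or passed the nearest late WT array for 61 of the 202 risers. The same held for 88 of the 303 fallers.

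**Figure D1:**
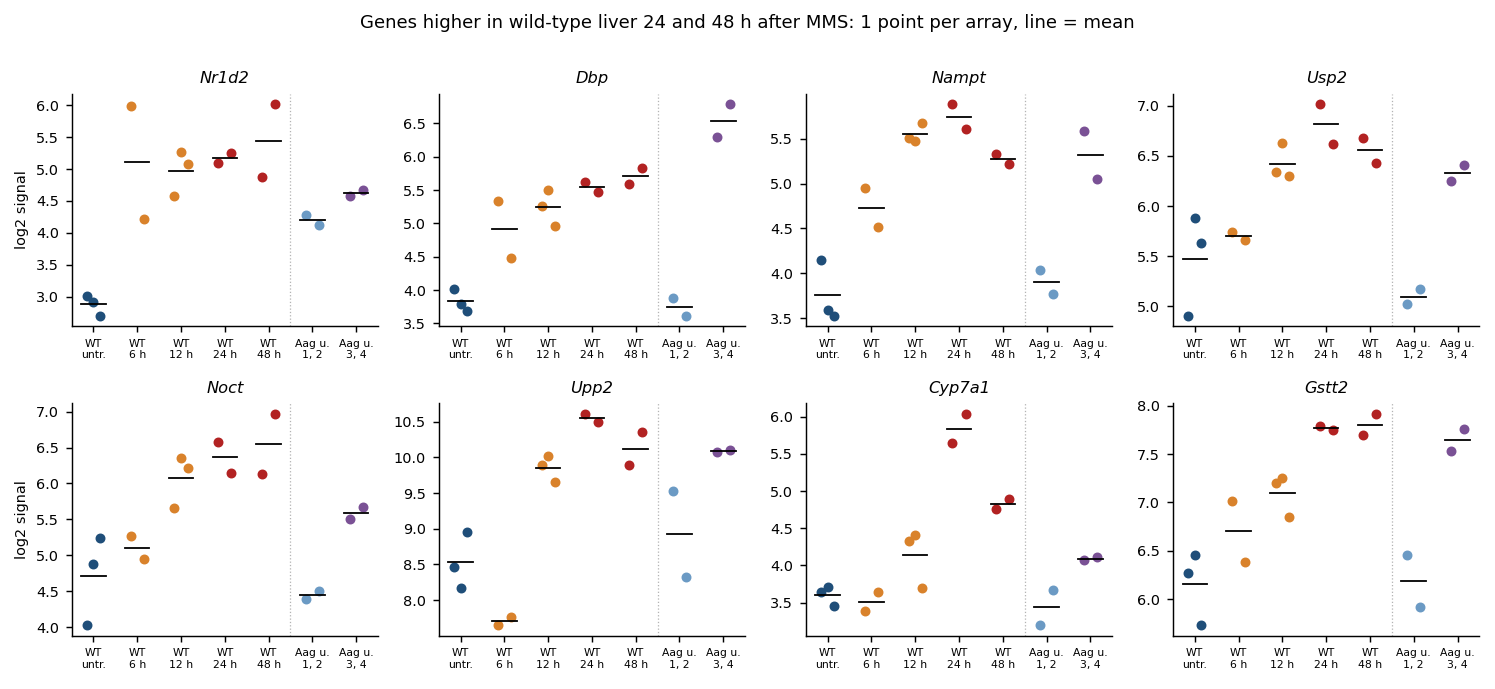
Log2 signal of 8 genes higher in late WT liver, with 1 point per array and a line at each group mean, for WT liver by hours after MMS and, right of the dotted line, for the Aag untreated arrays by replicate number. In each panel the 4 arrays at 24 h and 48 h lie above the 3 WT untreated arrays, while Aag untreated replicate 3 or 4 reaches the late range for Nampt, Upp2 and Gstt2 and both lie above it for Dbp.

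Against the WT untreated arrays, genes of the circadian clock and its output had the largest median difference of the lists with more than 3 tested genes. Among its 13 tested genes there were 7 rises and 1 fall, with a median difference of 0.71, beside 11.2% and 11.3% and a median of 0.03 over all genes. Nr1d2, a nuclear receptor that represses clock genes, was 3.01, 2.92 and 2.70 in the untreated arrays and 5.10, 5.26, 4.88 and 6.02 in the late arrays. The groups did not overlap, and Nr1d2 rose 5.41-fold (log2 2.44, SE 0.33, adjusted p = 3.12e-05). Against Aag untreated replicates 1 and 2, at 4.29 and 4.12, its difference was 1.11 (adjusted p = 0.222), and all 4 late arrays lay above all 7 untreated arrays.

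Dbp, a D-box binding output factor of the clock, was 4.02, 3.79 and 3.69 untreated and 5.62, 5.48, 5.59 and 5.83 late. Dbp rose 3.47-fold (log2 1.80, SE 0.48, adjusted p = 0.01), and against Aag untreated replicates 1 and 2 the rise was 1.88 (SE 0.20, adjusted p = 3.13e-05). Aag untreated replicates 3 and 4, at 6.30 and 6.78, were higher still. The untreated arrays of that genotype thus spanned the late WT level, and the value with array set as a term, 4.59, carries that span.

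Nampt, the rate-limiting enzyme of NAD salvage, was 4.15, 3.59 and 3.53 untreated and 5.88, 5.6, 5.33 and 5.21 late. It rose 3.36-fold (log2 1.75, SE 0.32, adjusted p = 0.000508) and by 1.60 against Aag untreated replicates 1 and 2 (SE 0.27, adjusted p = 0.00335), with the other 2 Aag untreated arrays at 5.58 and 5.05. Usp2, a deubiquitinase under clock control, was 4.91, 5.88 and 5.63 untreated and 7.01, 6.62, 6.68 and 6.43 late. Usp2 rose 2.32-fold (log2 1.21, SE 0.27, adjusted p = 0.00227), by 2.44 with array set as a term (SE 0.30) and by 1.59 against Aag untreated replicates 1 and 2 (SE 0.20, adjusted p = 0.00032). Its 4 late arrays lay above all 7 untreated arrays, by 0.017 at the nearest.

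Tef, a relative of Dbp, went from 6.79, 7.17 and 7.22 untreated to 8.19, 8.31, 8.02 and 7.77 late, 2.02-fold higher (SE 0.19, adjusted p = 0.000461), and by 0.45 against Aag untreated replicates 1 and 2 (adjusted p = 0.419). Aag untreated replicates 1, 3 and 4, at 7.82, 8.12 and 8.11 without MMS, lay inside the late range of Tef. Noct, a rhythmically expressed phosphatase and member of no list, was 4.03, 4.87 and 5.24 untreated and 6.58, 6.14, 6.13 and 6.97 late. Noct rose 3.34-fold (log2 1.74, SE 0.39, adjusted p = 0.00262), by 2.89 with array set as a term (SE 0.58, adjusted p = 0.00478) and by 2.01 against Aag untreated replicates 1 and 2 (SE 0.40, adjusted p = 0.0117). It was above 5.68, the highest of the 7 untreated arrays, in each late array. The 2 Noct probe sets not used had the same sign.

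Other clock members moved less or depended on the reference. Cry1, a repressor of the clock, was the list's only fall, from 5.46, 5.34 and 6.16 to 5.15, 4.74, 4.13 and 4.57 (2.00-fold lower, SE 0.17, adjusted p = 0.000195), and was 0.18 above Aag untreated replicates 1 and 2 (adjusted p = 0.856). The kinase gene Csnk1d was 1.87-fold higher (adjusted p = 0.00663), but -0.12 with array set as a term, 2 of its 3 other probe sets had the opposite sign, and its call ended without WT untreated replicate 1 (adjusted p = 0.0585). Nr1d1, the paralogue of Nr1d2, was 0.71 higher (SE 0.19, adjusted p = 0.00966) and passed at 48 h (adjusted p = 0.00845) but not at 24 h (0.145). It was 0.34 with array set as a term (adjusted p = 0.542) and -0.43 against Aag untreated replicates 1 and 2 (0.496), and all 4 Aag untreated arrays, at 5.61, 5.96, 5.19 and 5.63, reached its late range of 5.07 to 5.66 or lay above it. Per1 differed by 0.03 (adjusted p = 0.89). The core activators Arntl and Clock and the repressor Per2 were too dim to be tested. Under array set as a term 5 of the 13 genes were higher and 0 lower, beside 2.5% and 1.88% over all genes. Against Aag untreated replicates 1 and 2, 3 were higher, beside 0.601% over all genes. The median of the clock list was 0.34 and 0.18 under these references, below that of the fatty acid oxidation list (0.93 and 0.31) and of the conjugation list (0.59 and 0.30).

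The windows of 250 bases before the gene start show where known clock motifs lie in these members. They come from RefSeq on GRCm38.p6, in which 11 of the 13 clock genes had an entry. The E-box CACGTG was found before 3 of these 11 genes (Per1, Cry1 and Tef), and before 6.02% of all 32851 promoter windows. The D-box TTATGNAA, searched on both strands, was found before Per1 and Per3 and in 3.07% of the same windows. A gene counted if any of its windows matched, while these shares are of single windows. Of the 7 clock genes called higher late, 6 had an entry. Tef alone of these held the E-box and 0 held the D-box. Of the 10 risers named by rule that had an entry, Bnip3 and Slc20a1 held the E-box and Noct held the D-box. Of 11 fallers with an entry 0 held either motif. Tef and Noct are printed because they rose and hold a match, in capitals. RefSeq gives Tef 2 starts, each with an E-box in its window. The window printed is chr15:81802423-81802672 on the plus strand, with the match starting 127 bases before the start, and the other is chr15:81811164-81811413, with the match 138 bases before. The Noct window is chr3:51224197-51224446 on the plus strand, with the match in reverse complement 94 bases before the start.
Tef: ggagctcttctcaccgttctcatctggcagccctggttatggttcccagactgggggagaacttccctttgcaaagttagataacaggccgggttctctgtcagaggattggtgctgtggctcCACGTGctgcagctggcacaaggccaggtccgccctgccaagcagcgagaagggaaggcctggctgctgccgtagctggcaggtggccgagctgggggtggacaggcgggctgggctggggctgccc
Noct: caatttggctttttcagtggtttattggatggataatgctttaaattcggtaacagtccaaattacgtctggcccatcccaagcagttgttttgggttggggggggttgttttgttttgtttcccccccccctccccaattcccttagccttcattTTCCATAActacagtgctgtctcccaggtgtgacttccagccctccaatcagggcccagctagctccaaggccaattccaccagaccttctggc
A match is a run of letters and no measure of binding.

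Cyp7a1, which sets the rate of bile acid synthesis from cholesterol, rose under each reference used. It was 3.64, 3.72 and 3.45 in untreated arrays, 5.64 and 6.04 at 24 h, and 4.76 and 4.89 at 48 h. The lowest late array stood 0.65 above the highest of the 7 untreated arrays. The rise was 3.32-fold (log2 1.73, SE 0.28, adjusted p = 0.000123), 2.39 with array set as a term (SE 0.43, adjusted p = 0.00204) and 1.90 against Aag untreated replicates 1 and 2 (SE 0.30, adjusted p = 0.00213). Of 14 tested bile acid genes 2 were higher and 1 lower, beside 11.2% and 11.3% over all genes. Hsd3b7, which acts next in the same pathway, fell from 10.26, 10.26 and 10.10 to 9.36, 9.51, 9.43 and 9.67 (1.64-fold, SE 0.17, adjusted p = 0.00433), and by 0.73 against Aag untreated replicates 1 and 2 (SE 0.15, adjusted p = 0.0131), whose other 2 arrays were at 9.49 and 9.56. The canalicular transporter Abcc2 was 0.56 higher (SE 0.15, adjusted p = 0.0103). Leaving out WT untreated replicate 2 (adjusted p = 0.0839) or WT 48 h replicate 2 (0.058) ended this call. The bile acid receptor gene Nr1h4 (0.34, adjusted p = 0.0733, and 0.044 without WT 24 h replicate 2), Slc27a5 (-0.29, 0.295) and Amacr (-0.20, 0.384) did not pass.

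Of 23 tested conjugation enzymes 8 were higher and 1 lower, beside 11.2% and 11.3% over all genes, with a median difference of 0.27. Gstt2, a theta class glutathione transferase, was 6.28, 6.45 and 5.73 untreated and 7.79, 7.75, 7.70 and 7.92 late, with no overlap. Gstt2 rose 3.10-fold (log2 1.63, SE 0.32, adjusted p = 0.00083) and by 1.60 against Aag untreated replicates 1 and 2 (SE 0.25, adjusted p = 0.00213), while the other 2 Aag untreated arrays stood at 7.53 and 7.76. Gsta2, an alpha class transferase, was 6.69, 6.54 and 6.53 untreated, 7.48 and 6.92 at 24 h and 8.0 and 7.67 at 48 h. It rose 1.91-fold (log2 0.93, SE 0.17, adjusted p = 0.000401), by 1.26 with array set as a term (adjusted p = 0.00596) and by 1.02 against Aag untreated replicates 1 and 2 (SE 0.18, adjusted p = 0.0048), and Aag untreated replicate 4, at 6.97, passed its lowest late array. Gstm3 rose 1.84-fold in the pooled group (SE 0.16, adjusted p = 0.00054), 1.65-fold at 24 h and 2.05-fold at 48 h, and Gstm1 1.52-fold in the pooled group (adjusted p = 0.00198), with adjusted p = 0.204 and 0.1 with array set as a term. Ugt2b5 was 0.67 and Mgst3 0.93 higher, calls that ended without WT untreated replicate 1 (adjusted p = 0.0541 and 0.0913). The call of Mgst3 also ended without WT untreated replicate 3 (0.0825), WT 24 h replicate 1 (0.0982) or WT 48 h replicate 1 (0.0767). In the fit with array set, 3 genes of the list were higher and 0 lower, beside 2.5% and 1.88% over all genes.

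Genes of fatty acid oxidation under PPARalpha, the nuclear receptor of fasting, had 7 of 29 higher and 1 lower, with a median difference of 0.34. Over all genes 11.2% were higher and 11.3% lower. Cpt1a, which gates fatty acid entry into mitochondria, was 7.08, 6.94 and 7.60 untreated and 8.44, 8.78, 8.40 and 8.58 late. It rose 2.54-fold (log2 1.34, SE 0.20, adjusted p = 8.44e-05) and by 1.95 with array set as a term (SE 0.30, adjusted p = 0.000398), but by 0.52 against Aag untreated replicates 1 and 2 (SE 0.21, adjusted p = 0.37), which were at 8.06 and 8.0. Aag untreated replicates 3 and 4, at 8.5 and 8.77, lay in the late range. Pex11a, a peroxisome growth factor, went from 4.48, 4.90 and 5.06 to 5.74, 5.88, 5.92 and 5.79 (2.02-fold, SE 0.14, adjusted p = 2.82e-05), and its late arrays were above all 7 untreated arrays, though its difference from Aag untreated replicates 1 and 2 was 0.46 (adjusted p = 0.207). Hadhb of beta-oxidation rose 1.72-fold (SE 0.13, adjusted p = 0.000154) and the carnitine carrier Slc25a20 1.60-fold (SE 0.14, adjusted p = 0.00126). Both passed with array set as a term (0.94, adjusted p = 0.00868, and 1.00, 0.00716) but not against Aag untreated replicates 1 and 2 (0.21, 0.733, and 0.34, 0.426). All 4 Aag untreated arrays, at 7.94 to 8.23, lay inside the late range of Hadhb, 7.89 to 8.51. Pdk4, the kinase that shuts off pyruvate dehydrogenase and itself a PPARalpha target, was 1.52-fold lower (SE 0.15, adjusted p = 0.00469), with -0.43 with array set as a term (0.306) and -0.14 against Aag untreated replicates 1 and 2 (0.885). Cpt2 was 0.59 higher (SE 0.15, adjusted p = 0.0063), and -0.002 when its probe sets were averaged. In the fit with array set, there were 13 rises and 0 falls among the 29, the median being 0.93, beside 2.5% and 1.88% over all genes. Against Aag untreated replicates 1 and 2 there were 3 and 0, with a median of 0.31, beside 0.601% and 0.346% over all genes.

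Several metabolic and transport genes outside these lists were among the largest common rises. Upp2, the liver uridine phosphorylase, was 8.46, 8.17 and 8.96 untreated and 10.61, 10.50, 9.89 and 10.36 late. It rose 3.51-fold (log2 1.81, SE 0.28, adjusted p = 0.000104), by 2.98 with array set as a term and by 1.41 against Aag untreated replicates 1 and 2 (SE 0.24, adjusted p = 0.00433), and Aag untreated replicates 3 and 4 were at 10.08 and 10.10, inside the late range. Bnip3, a mitochondrial mitophagy receptor, went from 3.49, 3.82 and 4.20 to 5.65, 5.29, 5.59 and 5.86 (3.40-fold, SE 0.32, adjusted p = 0.000417), above all 7 untreated arrays. Its rise against Aag untreated replicates 1 and 2 was 1.36 (SE 0.35, adjusted p = 0.0752). St3gal5, which makes the ganglioside GM3, rose 2.39-fold (log2 1.25, SE 0.22, adjusted p = 0.000364) and by 1.00 against Aag untreated replicates 1 and 2 (adjusted p = 0.00528). Aag untreated replicates 3 and 4, at 7.39 and 7.38, lay inside its late range of 7.06 to 7.87. The phosphate transporter Slc20a1 rose 2.33-fold (SE 0.24, adjusted p = 0.000884) and by 0.88 against Aag untreated replicates 1 and 2 (adjusted p = 0.114), with replicate 3 at 4.93 inside its late range of 4.84 to 5.35.

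Erdr1 gave the largest change of all common genes, from 3.48, 4.10 and 4.35 to 7.60, 7.89, 8.12 and 6.73. This 12.2-fold rise (log2 3.61, SE 0.54, adjusted p = 7.94e-05) was read by 1 probe set of a type that matches a sequence family, while the other Erdr1 probe set changed by -0.16. Aag untreated replicates 3 and 4 were at 8.0 and 7.39 for Erdr1 without MMS.

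**Figure D2:**
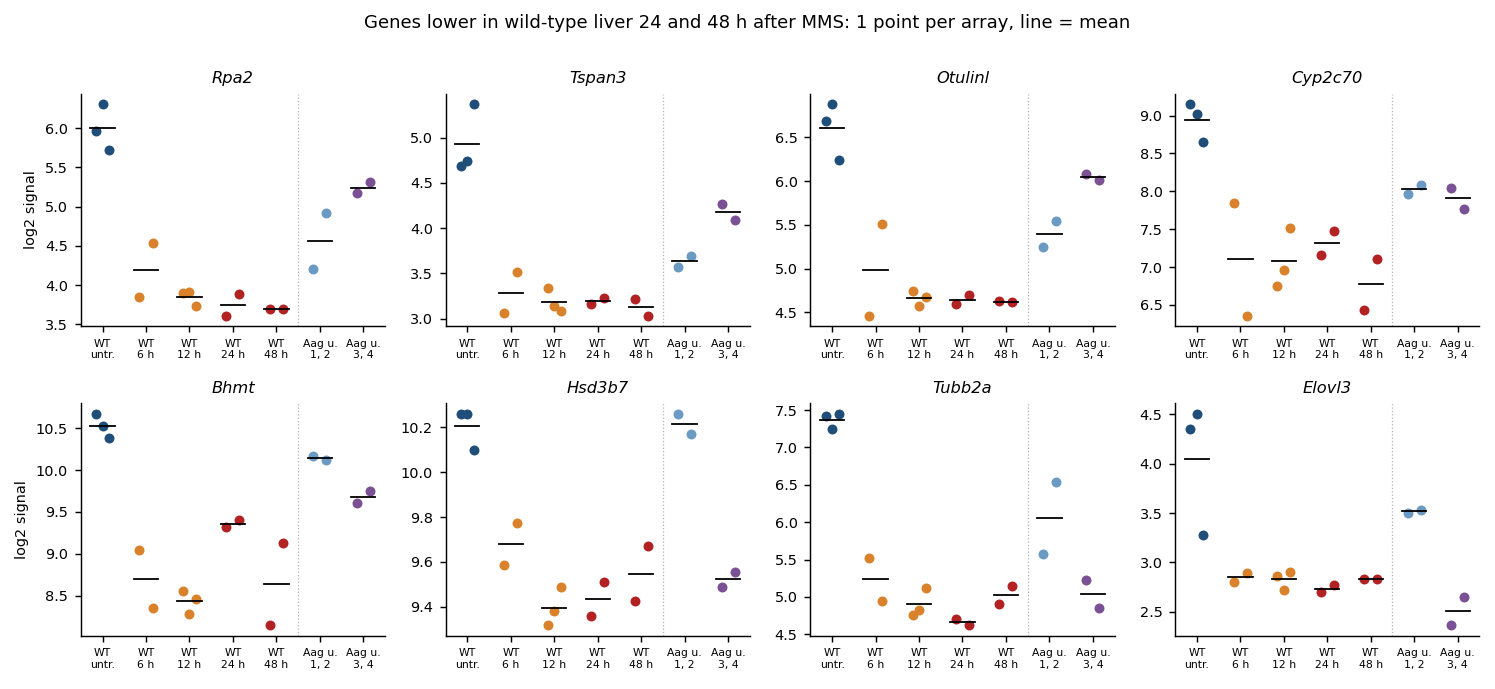
Log2 signal of 8 genes lower in late WT liver, drawn as for the risers. The late arrays at 24 h and 48 h lie below the 3 WT untreated arrays in every panel, and Aag untreated replicates 1 and 2 lie between them for Rpa2, Tspan3, Otulinl and Tubb2a.

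Rpa2, a subunit of the complex that coats single-stranded DNA in replication and repair, had the smallest adjusted p of late liver. Rpa2 was 5.97, 6.30 and 5.73 in untreated arrays and 3.61, 3.89, 3.70 and 3.70 in late arrays. It fell 4.84-fold (log2 -2.28, SE 0.21, adjusted p = 7.83e-07), by 1.59 with array set as a term (SE 0.29, adjusted p = 0.00234) and by 0.83 against Aag untreated replicates 1 and 2 (SE 0.20, adjusted p = 0.0488). All 4 late arrays were below all 7 untreated arrays, the lowest of which was 4.20. The arrays at 6 h and 12 h were already at 3.74 to 4.53. Its partner subunit Rpa1 was -0.34 (SE 0.15, adjusted p = 0.12).

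Other DNA repair genes moved little or lost their call. Of 10 tested genes of other repair and checkpoint pathways 0 were higher and 2 lower, Rpa2 and the damage sensor Ddb1. Over all genes 11.2% were higher and 11.3% lower. Ddb1 was -0.38 (SE 0.13, adjusted p = 0.0479), reversed to 0.06 with array set as a term, and lost its call without any 1 of the 7 arrays compared (adjusted p up to 0.165). Ercc2 (0.51, adjusted p = 0.0683, and 0.00662 without WT untreated replicate 1), Fancc (-0.29, 0.0929) and the kinase gene Chek2 (-0.12, 0.61) did not pass. In base excision repair, the pathway that Aag starts, 0 of 10 were higher and 3 lower, beside the same 11.2% and 11.3%. Ung, the uracil glycosylase, went from 7.84, 8.40 and 7.34 to 6.09, 6.29, 6.50 and 6.42 (2.89-fold lower, SE 0.24, adjusted p = 0.000103), but its other probe set was 0.73 higher. Xrcc1, the scaffold of single-strand break repair, went from 5.48, 6.06 and 6.01 to 4.90, 5.0, 5.42 and 4.65 (1.81-fold lower, SE 0.21, adjusted p = 0.00503). Parp1, the strand break sensor, went from 4.99, 5.39 and 4.75 to 4.27, 4.14, 4.58 and 4.27 (1.65-fold lower, SE 0.17, adjusted p = 0.00354). With array set as a term Ung (-0.78, adjusted p = 0.203), Xrcc1 (-0.80, 0.201) and Parp1 (-0.86, 0.0831) did not pass. Pcna (0.38, adjusted p = 0.124), Lig1 (-0.22, 0.245), Parp2 (0.20, 0.517) and the abasic site nuclease Apex1 (-0.18, 0.571) did not pass in the first place. Polb and Mpg were too dim to be tested, and without the brightness filter Mpg differed by -0.05 (SE 0.11, adjusted p = 0.77).

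Targets of p53, the damage-activated transcription factor, showed no common direction. There were 2 rises and 2 falls among 17 tested, beside 11.2% and 11.3% over all genes, and the median was 0.11. Cdkn1a, the p53-driven inhibitor of cell cycle kinases, was 6.13, 6.66 and 6.80 untreated and 6.14, 6.26, 6.34 and 6.06 late, and the groups overlapped (-0.33, SE 0.16, adjusted p = 0.144). Without WT untreated replicate 1 it was -0.53 (adjusted p = 0.026). Mdm2, the ubiquitin ligase of p53, was 0.20 (SE 0.17, adjusted p = 0.431). Zmat3 was 1.43-fold lower in the pooled group (SE 0.13, adjusted p = 0.00599), 1.41-fold at 24 h and 1.45-fold at 48 h, and -0.42 with array set as a term (adjusted p = 0.256). The stress protein genes Sesn1 (0.75, adjusted p = 0.0253) and Plk3 (0.58, 0.0451) were higher and Ddit4 was lower (-0.61, 0.0198). The call of Sesn1 ended without WT untreated replicate 2 (0.102), WT 24 h replicate 1 (0.0941) or WT 48 h replicate 2 (0.124), and that of Ddit4 without WT untreated replicates 1 (0.109) or 3 (0.103) or WT 24 h replicate 2 (0.0953). Plk3 lost its call without any of WT untreated replicates 1, 2 and 3, WT 24 h replicate 2 and WT 48 h replicate 1, with adjusted p up to 0.173. None of the 17 passed with array set as a term, beside 4.37% over all genes. Rrm2b (-0.53, adjusted p = 0.0671) and Polk (0.29, 0.11, and 0.0178 without WT untreated replicate 1) did not pass. Ccng1 was too dim to be tested, and Bax and Gdf15 were not analysed here.

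**Figure D3:**
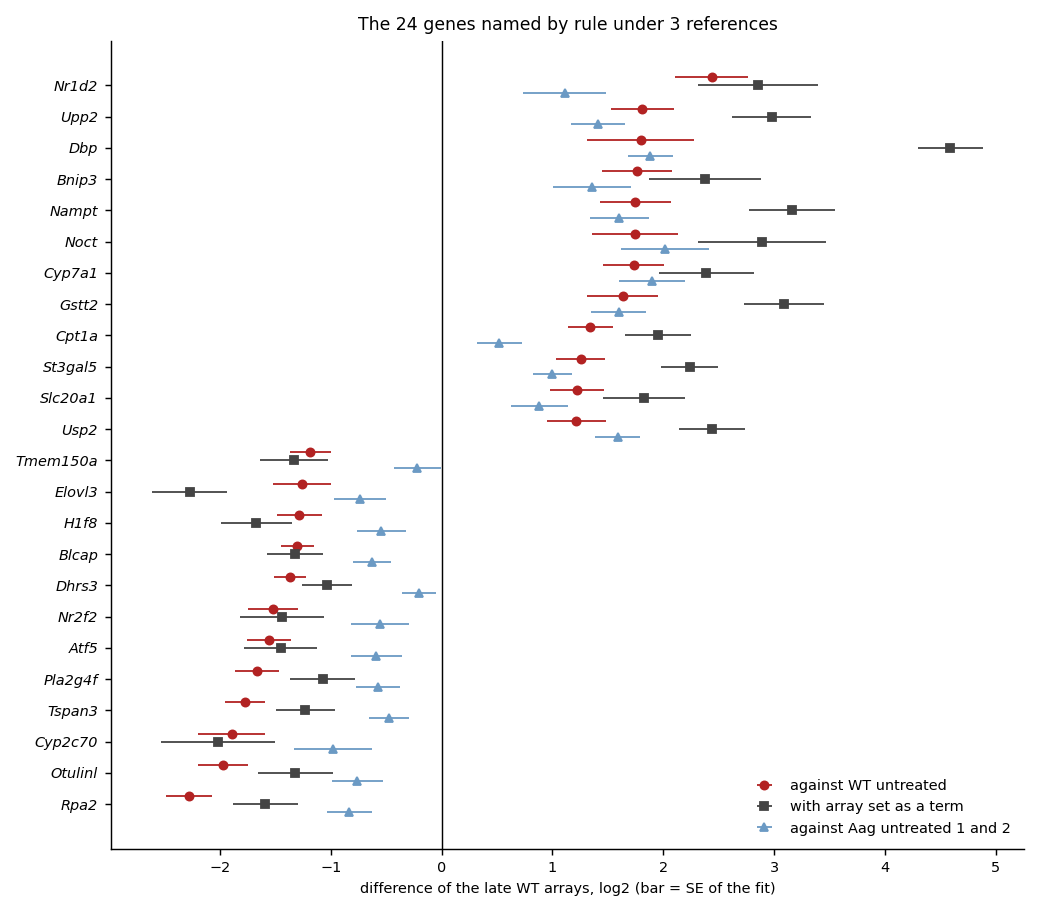
Difference of the late WT arrays on the log2 scale for the 12 largest risers and 12 largest fallers named by rule, with SE bars, against WT untreated arrays, with array set as a term, and against Aag untreated replicates 1 and 2. The choice of genes fixed the same side of 0 against WT untreated arrays and with the term. Each gene also keeps its side against the Aag untreated arrays, as do all 46 risers and 61 fallers kept with array set as a term. The fallers lie nearer to 0 against the Aag untreated arrays.

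The largest remaining falls were of varied function. Otulinl, a relative of a linear deubiquitinase, went from 6.69, 6.88 and 6.24 to 4.59, 4.69, 4.63 and 4.61 (3.92-fold lower, SE 0.23, adjusted p = 7.29e-06), and the lowest of the 7 untreated arrays stood 0.55 above the highest late array. Tspan3, a membrane tetraspanin, went from 4.69, 4.74 and 5.37 to 3.16, 3.23, 3.21 and 3.03 (3.42-fold lower, SE 0.18, adjusted p = 2.01e-06). Cyp2c70, the enzyme that makes muricholic acids in mice, went from 9.15, 9.02 and 8.65 to 7.16, 7.48, 6.44 and 7.10 (3.72-fold lower, SE 0.31, adjusted p = 0.000137). Against Aag untreated replicates 1 and 2 these falls were -0.76 (adjusted p = 0.146), -0.48 (0.336) and -0.98 (0.277).

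Elovl3, a fatty acid elongase, went from 4.35, 4.5 and 3.28 to 2.70, 2.77, 2.83 and 2.83, a fall of 2.40-fold (SE 0.26, adjusted p = 0.00137). It was -2.27 with array set as a term (adjusted p = 0.000306), and Aag untreated replicates 3 and 4, at 2.37 and 2.65, were as low without MMS. The stress transcription factor Atf5 fell 2.94-fold (SE 0.20, adjusted p = 1.84e-05), the nuclear receptor Nr2f2 2.87-fold (SE 0.23, adjusted p = 7.59e-05) and the retinal reductase Dhrs3 2.58-fold (SE 0.14, adjusted p = 2.01e-06). Pla2g4f (3.17-fold), Blcap (2.46-fold), the linker histone gene H1f8 (2.43-fold) and Tmem150a (2.27-fold) completed the named falls, with adjusted p from 7.5e-06 for Blcap to 0.000104 for Tmem150a. Untreated Aag arrays reached the late range for H1f8 (replicates 3 and 4 at 4.58 and 4.54, late 4.27 to 4.65) and Tmem150a (replicates 1, 3 and 4 at 5.90, 6.05 and 6.32, late 5.82 to 6.51). They also did for Nr2f2 (replicates 1 and 4 at 3.72 and 3.91, late 3.31 to 4.04) and Atf5 (replicate 1 at 5.15, late 4.88 to 5.19). Against Aag untreated replicates 1 and 2 Elovl3 did not pass (-0.73, adjusted p = 0.179), nor did these 7 genes, with differences from -0.21 for Dhrs3 (adjusted p = 0.762) to -0.63 for Blcap (0.102).

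Bhmt, which remethylates homocysteine from betaine, was 10.67, 10.53 and 10.38 untreated and 9.32, 9.40, 8.15 and 9.13 late. Bhmt fell 2.88-fold (log2 -1.53, SE 0.20, adjusted p = 2.74e-05), by 2.00 with array set as a term (SE 0.31, adjusted p = 0.00053) and by 1.15 against Aag untreated replicates 1 and 2 (SE 0.22, adjusted p = 0.00863). The late arrays lay below all 7 untreated arrays, while its dimmer second probe set changed by 0.01. Among 14 tested genes of methionine and one-carbon metabolism 0 were higher and 2 lower, beside 11.2% and 11.3% over all genes. Dmgdh, which acts on the product of Bhmt, was 1.57-fold lower (SE 0.13, adjusted p = 0.000815), with adjusted p = 0.0576 at 24 h and 0.000602 at 48 h. Sardh (0.52, adjusted p = 0.0761), Gamt (0.27, 0.0993), Folr1 (-0.34, 0.164) and Ahcy (0.19, 0.274) did not pass, and Sardh had adjusted p = 0.0281 without WT untreated replicate 1.

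Of the 27 common genes that also passed against Aag untreated replicates 1 and 2, 26 passed with array set as a term, Isg15 being the exception (adjusted p = 0.0674), and 14 kept the late arrays apart from all 7 untreated arrays. This choice of 14 was made after the values were seen. For 23 of the 27 the difference was larger with array set as a term than without it. The 7 risers were Cyp7a1, Noct, Usp2, 0610005C13Rik, the reductase gene Cyb5r1, Elmod3 and the RNA polymerase III subunit gene Polr3a. The 7 fallers were Rpa2, Bhmt, Adck1, Apmap, Crip2, the annexin partner S100a10 and the interferon-induced ubiquitin-like Isg15. The transcript 0610005C13Rik was 7.35 to 7.56 untreated and 8.49 to 8.65 late (2.18-fold, SE 0.12, adjusted p = 2.01e-06). Apmap went from 5.20 to 5.49 untreated to 4.30 to 4.54 late (1.94-fold lower, SE 0.10, adjusted p = 2.01e-06), and by 0.61 against Aag untreated replicates 1 and 2 (adjusted p = 0.00433). S100a10, lower by 0.95 (SE 0.13), had 1 other probe set of opposite sign.

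Markers of stellate cells and extracellular matrix had 0 of 23 tested genes higher and 7 lower, with a median difference of -0.25. All 7 were common to both times. Over all genes 11.2% were higher and 11.3% lower, and 5.52% were common fallers. In bulk liver, fewer cells of a type and less RNA per cell cannot be told apart. Col3a1, a fibrillar collagen, went from 5.96, 6.27 and 6.82 to 5.14, 5.15, 5.42 and 5.12 (2.21-fold lower, SE 0.20, adjusted p = 0.000325). The basement membrane collagen gene Col4a1 went from 5.47, 4.86 and 5.43 to 4.42, 4.45, 4.34 and 4.24 (1.85-fold lower, SE 0.14, adjusted p = 0.000116), its neighbour Col4a2 fell 1.54-fold (SE 0.14) and fibronectin, Fn1, fell 1.73-fold (SE 0.14, adjusted p = 0.000228). Des was 1.39-fold lower and Pdgfra 1.66-fold lower, calls that ended without WT untreated replicate 3 for Des (adjusted p = 0.0533) and replicate 1 for Pdgfra (0.0915). The collagen gene Col1a1 was 0.29 (adjusted p = 0.117). With array set as a term Col4a1 alone of the fallers passed (-1.05, adjusted p = 0.00924), and against Aag untreated replicates 1 and 2 none of the 23 did. Over all genes 4.37% passed with the term and 0.948% against those Aag arrays. The mean level over this list was 4.40 to 4.56 in late, 4.62 to 4.66 in untreated and 4.61 to 4.62 in those Aag arrays. Among other cell types, Kupffer cell and macrophage markers had 0 genes higher and 1 lower of 17, and neutrophil markers 0 and 2 of 7. Endothelial markers had 0 and 2 of 9 and B cell markers 1 and 3 of 7. MHC class II genes had 2 and 0 of 8, T and NK cell markers 1 and 0 of 7, and erythroid markers 2 and 2 of 11. The share over all genes was 11.2% higher and 11.3% lower.

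Some of the largest common changes were not called under another reference or were read by probe sets at odds with others of the gene. Kcnj9 (-3.55), Odf2 (-3.25), Reg2 (-2.86) and Slc23a3 (-2.82) fell furthest, with adjusted p of 8.62e-06, 3.28e-05, 3.36e-05 and 5.86e-05, and did not pass with array set as a term (0.0511, 0.166, 0.153 and 0.145). All 4 were read by probe sets of a class with relaxed probe selection (suffix _r_at), and other probe sets of Kcnj9, Reg2 and Slc23a3 had the opposite sign. The same class read Pla2g4f, H1f8 and Nr2f2 among the falls kept with array set as a term, and also Ung and Plk3. That class made up 39 of the 303 common fallers (12.9%), 5 of the 202 risers (2.48%) and 229 of 5487 genes tested (4.17%). Of the 505 common genes 189 had more than 1 probe set and 95 had another of opposite sign. Tubb2a, a beta tubulin, fell 5.76-fold (SE 0.25, adjusted p = 2.01e-06) on a probe set shared by a sequence family, and its other probe set was 0.32 higher. It stayed called with array set as a term (-3.55, adjusted p = 9.73e-07) and against Aag untreated replicates 1 and 2 (-1.21, 0.00826), while Aag untreated replicate 4, at 4.85, lay inside its late range of 4.62 to 5.14. Tubb3 was 2.17-fold lower on such a probe set (SE 0.15, adjusted p = 3.34e-05), and was -0.48 against Aag untreated replicates 1 and 2 (adjusted p = 0.233). Probe sets of that family type (suffix _f_at) also read Cry1, Gstm1, Gstm3, Ugt2b5, Parp1, Xrcc1, Igfbp1, Rrm2b, Saa2, Adck1 and Elmod3. Among risers Mrm3 (2.25), Dnajb9 (2.00), Pip4k2c (1.88) and Rnf13 (1.86) lost their call, with values of 0.24, 0.71, 0.69 and 0.76 with array set as a term and -0.35, 0.13, -0.19 and 0.03 against Aag untreated replicates 1 and 2.

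**Figure D4:**
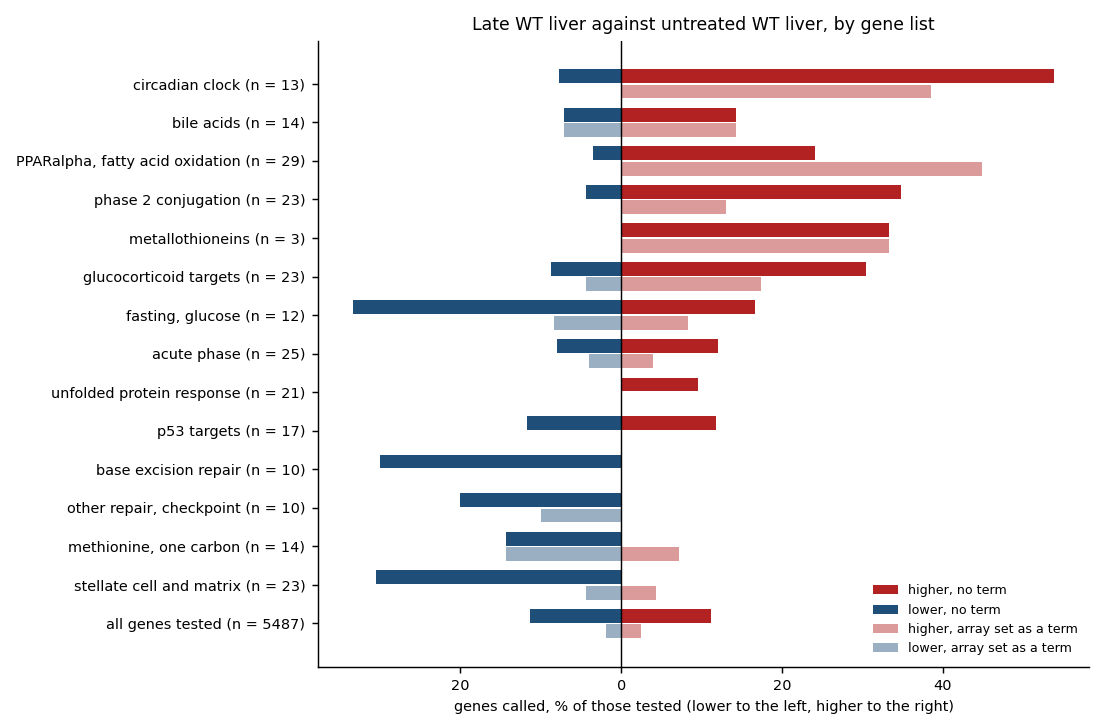
Share of tested genes of each list called higher (right) or lower (left) in late against untreated WT liver, with n the number tested, without a term (dark bars) and with array set as a term (pale bars). The clock list has 7 of 13 higher, and the bottom bars give the background of 11.2% higher and 11.3% lower over all 5487 genes.

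Metallothionein 1, Mt1, a metal-binding stress protein, was higher in the pooled group. It was 6.56, 5.95 and 6.18 untreated, 9.48 and 10.08 at 24 h and 7.98 and 7.97 at 48 h. The pooled rise was 6.26-fold (log2 2.65, SE 0.57, adjusted p = 0.00209), 4.74 with array set as a term (SE 0.78, adjusted p = 0.00084) and 2.41 against Aag untreated replicates 1 and 2 (SE 0.54, adjusted p = 0.0312), whose other 2 arrays stood at 9.02 and 8.10. It did not count as common, since at 48 h alone adjusted p was 0.0892. Mt2 was 9.09 and 9.19 at 24 h but 6.77 and 7.05 at 48 h, inside the untreated range of 6.82 to 7.08 or just below it (pooled 1.06, adjusted p = 0.211). Mt3 was 0.36 (adjusted p = 0.0888).

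Glucocorticoid receptor targets had 7 of 23 higher and 2 lower (median 0.28), beside 11.2% and 11.3% over all genes. Of the 23, 1 alone was common to both times, beside 9.2% over all genes. That gene, the repressor Zbtb16, was 1.56-fold higher (SE 0.13, adjusted p = 0.00133) and -0.10 against Aag untreated replicates 1 and 2. Fkbp5, a co-chaperone of the receptor, was 5.06, 5.36 and 5.58 untreated, 7.01 and 6.68 at 24 h and 5.28 and 5.54 at 48 h. It was the only gene of 5487 (0.0182%) that differed between 48 h and 24 h (-1.43, adjusted p = 0.0277), where 234 (4.26%) had unadjusted p under 0.05. This call ended when any of the 4 late arrays was left out, with adjusted p of 0.474 and 0.12 without WT 24 h replicates 1 and 2 and of 0.967 and 0.0589 without WT 48 h replicates 1 and 2. Tdo2, the tryptophan dioxygenase, was 0.77 higher (SE 0.20, adjusted p = 0.00674) and -0.09 against Aag untreated replicates 1 and 2. Klf9 was 0.76 higher (adjusted p = 0.0207) and -0.29 with array set as a term. Its call ended without WT untreated replicates 1 (0.0896) or 2 (0.0772), WT 24 h replicate 2 (0.0866) or WT 48 h replicate 2 (0.061).

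Among 12 tested genes of fasting and glucose output 2 were higher and 4 lower, beside 11.2% and 11.3% over all genes. G6pc, the last enzyme of glucose release, went from 9.40, 9.95 and 10.28 to 8.25, 7.88, 7.65 and 8.09 (3.76-fold lower, SE 0.36, adjusted p = 0.000564), but was 0.12 against Aag untreated replicates 1 and 2, at 7.87 and 7.82. Pcx, pyruvate carboxylase, was 1.90-fold lower (SE 0.20, adjusted p = 0.00222) and 0.10 against those arrays. Lpin1, a phosphatidate phosphatase, was 8.42 and 7.95 at 24 h and 7.0 and 6.20 at 48 h, against 4.95, 4.87 and 6.82 untreated, so that the groups overlapped at 48 h (pooled 1.85, SE 0.57, adjusted p = 0.0232). Its call ended without WT untreated replicates 1 (0.107) or 2 (0.115), WT 24 h replicate 1 (0.069) or WT 48 h replicate 1 (0.0705). Igfbp1 (-2.02, adjusted p = 0.0381), Slc2a2 (1.03, 0.0327) and Fbp1 (-0.28, 0.0305) each lost their call without any of 5 of the 7 arrays, which included WT untreated replicates 1 and 2 and WT 24 h replicate 2 for all 3 genes. The others were WT untreated replicate 3 and WT 48 h replicate 1 for Igfbp1, both 48 h arrays for Fbp1, and WT 24 h replicate 1 and WT 48 h replicate 2 for Slc2a2. Igfbp1 was 0.62 with array set as a term. The highest adjusted p reached was 0.164 for Igfbp1, 0.195 for Slc2a2 and 0.102 for Fbp1.

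**Figure D5:**
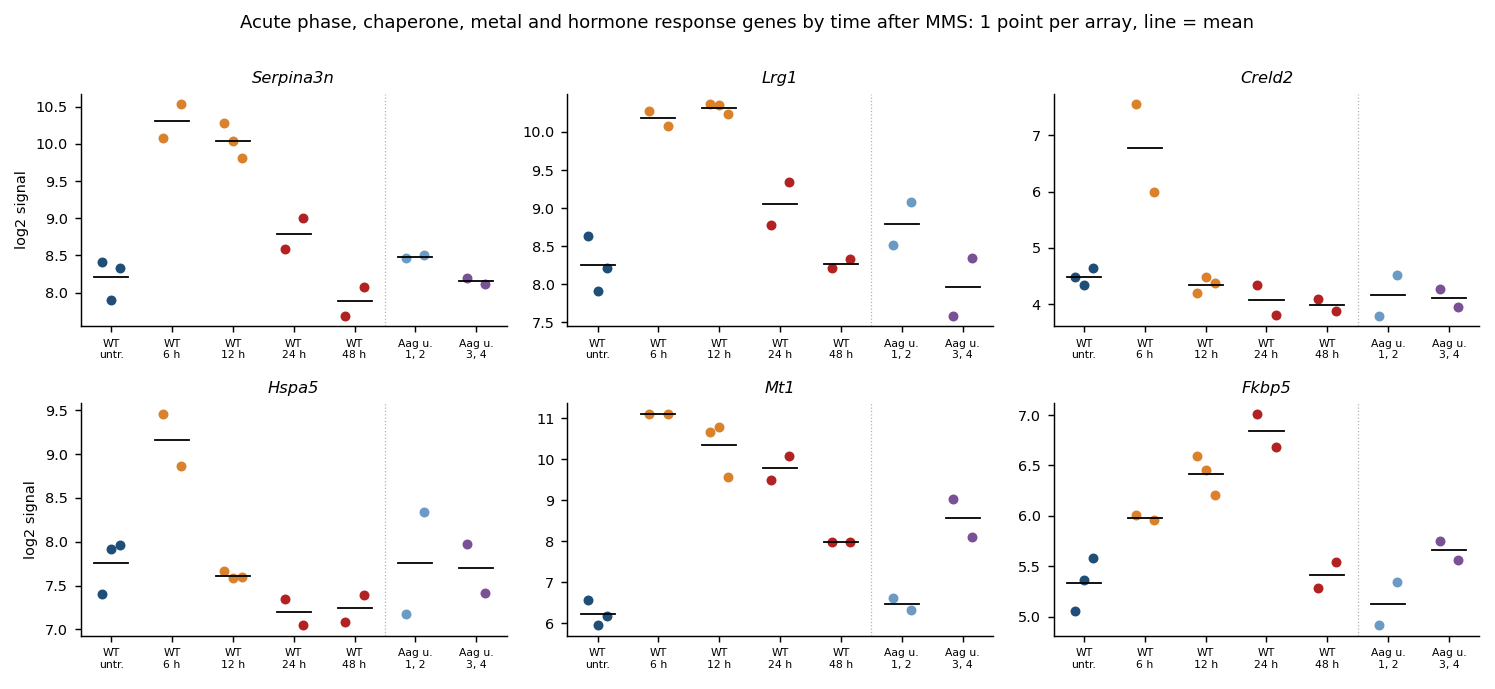
Log2 signal of 6 genes of the acute phase, chaperone, metal and hormone responses, drawn as for the risers. The WT arrays at 6 h are the highest for Creld2 and Hspa5, Serpina3n and Lrg1 are lower at 24 h and 48 h than at 6 h and 12 h, and Fkbp5 is highest at 24 h.

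The acute phase response, plasma proteins that liver makes in inflammation, showed no common direction against untreated liver. There were 3 rises and 2 falls among 25 tested genes, beside 11.2% and 11.3% over all genes, and the median was 0.13. Serpina3n, a protease inhibitor, was 8.58 and 9.0 at 24 h and 7.69 and 8.07 at 48 h, against 8.41, 7.90 and 8.33 untreated (0.12, adjusted p = 0.74) and 9.81 to 10.53 at 6 h and 12 h. Saa2, serum amyloid A, was 11.14 and 10.78 at 24 h and 7.61 and 7.62 at 48 h, against 8.93, 6.79 and 6.93 untreated (1.74, SE 0.78, adjusted p = 0.112). Orm2, a plasma carrier protein, was 1.20 higher (SE 0.29, adjusted p = 0.00438) and at 48 h alone had adjusted p = 0.0911. Fibrinogen gamma, Fgg, was 1.70-fold lower (SE 0.18, adjusted p = 0.00433). Saa4 was 3.60-fold higher in the pooled group (SE 0.41, adjusted p = 0.0023), 3.51-fold at 24 h and 3.69-fold at 48 h, but -0.003 against Aag untreated replicates 1 and 2, at 6.86 and 6.68. Il6ra (0.50, adjusted p = 0.0123) lost its call without WT untreated replicates 2 (0.0601) or 3 (0.0617) or WT 24 h replicate 2 (0.0563). Crp (-0.36, adjusted p = 0.0273) lost it without WT untreated replicates 1 (0.0724) or 2 (0.0766), WT 24 h replicate 2 (0.108) or WT 48 h replicate 1 (0.141). The vanin gene Vnn1, 1.30 higher (adjusted p = 0.0573), passed with array set as a term (3.80) and against Aag untreated replicates 1 and 2 (1.36, adjusted p = 0.0391). Aag untreated replicates 3 and 4, at 6.65 and 5.98 without MMS, lay above its whole late range of 4.69 to 5.83.

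Compared with the 5 WT arrays at 6 h and 12 h, which lie in the array set of the late arrays, 55 genes passed (1% of those tested), 31 higher and 24 lower. The count was 547 without WT 6 h replicate 1, 25 and 24 without WT 24 h replicates 1 and 2, 26 and 36 without WT 48 h replicates 2 and 1, 34 and 32 without WT 12 h replicates 1 and 2, and 28 as deposited. Acute phase genes had 0 higher and 7 lower of 25 and genes of the unfolded protein response 0 higher and 5 lower of 21, beside 0.565% higher and 0.437% lower over all genes. Serpina3n was 1.84 lower than early (SE 0.20, adjusted p = 1.2e-05) and Lrg1, a plasma glycoprotein, was -1.58 (SE 0.27, adjusted p = 0.00284). Creld2, a chaperone of the endoplasmic reticulum, was -1.53 (SE 0.30, adjusted p = 0.00733), and -1.14 to -1.92 with an array left out, with adjusted p = 0.0635 and 0.0524 without WT 24 h replicate 2 and WT 48 h replicate 2. Calls of Hspa5 (-1.17, adjusted p = 0.0276), Manf (-1.28, 0.0465) and Apcs (-1.51, 0.0471) each ended without any of 7 of the 9 arrays, all late arrays included, and Apcs was -0.98 without WT 6 h replicate 1. With the replicate block they had adjusted p of 0.0595, 0.0913 and 0.0607.

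Against the untreated arrays, genes of the unfolded protein response had 2 higher and 0 lower of 21, beside 11.2% and 11.3% over all genes. Herpud1, of protein disposal from the endoplasmic reticulum, was 8.53, 7.87, 8.08 and 8.48 late and 6.97, 7.0 and 7.47 untreated (2.13-fold, SE 0.28, adjusted p = 0.00823), with adjusted p = 0.0703 with array set as a term. Hspa5, the main chaperone there, was -0.54 (adjusted p = 0.199), Hsp90b1 -0.54 (0.0558), Sec11a 0.61 (0.155) and Derl1 -0.25 (0.159). Hsp90b1 had adjusted p = 0.0261 without WT 48 h replicate 2.

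Genes higher late than early included Upp2 (1.56, SE 0.25, adjusted p = 0.00178) and Cyp7a1 (1.5, SE 0.24, adjusted p = 0.00186), which also rose against the untreated arrays. Upp2 was 7.65 and 7.76 at 6 h, below the untreated arrays, and 9.90, 10.02 and 9.66 at 12 h, above them and up to the late range of 9.89 to 10.61. Inmt, a methyltransferase, was 1.07 higher than early (SE 0.19, adjusted p = 0.00346) but 0.22 against untreated liver (adjusted p = 0.495), and Gamt (0.81, adjusted p = 9.73e-05) and Sardh (1.03, 0.00378) were also higher late than early. The calls of Erdr1 (2.13, adjusted p = 0.0293), Papss2 (1.37, 0.0471) and Car3 (1.07, 0.0297) ended without any of 6, 7 and 7 of the 9 arrays, among them both 24 h arrays for each gene, with adjusted p up to 0.137, 0.291 and 0.17. Papss2 had adjusted p = 0.0723 with the replicate block.

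Late WT and late Aag null liver did not differ in any gene by limma, with 0 of 5487 called, 86 (1.57%) at unadjusted p under 0.05 and a smallest adjusted p of 0.999. The WT minus Aag difference was 0.13 for Cyp7a1 (SE 0.23), 0.004 for Dbp (SE 0.40), -0.28 for Rpa2 (SE 0.17), -0.17 for Bhmt (SE 0.17) and 0.16 for Mt1 (SE 0.47). A call count of 0 does not show that the genotypes were alike.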

How the data were processed

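Liver RNA of 28 samples was hybridized to MG-U74Av2 arrays. The deposited log2 values, 1 per probe set, ranged from 0.6886 to 13.16. That they are log2 is inferred from this range, and how the authors summarised and scaled them is not given here. Of 12488 probe sets, 66 controls were left out. By the platform annotation 10855 named 1 gene, 396 several and 1237 none, and 10839 symbols matched RefSeq. Array medians spanned 0.215, so arrays were quantile normalized. The brightest probe set stood for each of 8251 genes, and the test covered the 5487 genes that exceeded the median of their array on 2 or more arrays. A model of 10 group means (limma 3.58.1, R 4.3.3, empirical Bayes with trend, 18 residual degrees of freedom) gave differences, SE and two-sided p-values with Benjamini-Hochberg adjustment, called under 0.05. The late value is the mean of the 24 h and 48 h groups. Array set was split at the largest gap in the mean of 9 hybridization controls. The fit was tested on simulated data for late against untreated over 5487 genes and recovered 91% of changes of 1 and 39% of changes of 0.5 (log2).

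The comparison, genes and lists were chosen with earlier results of these data known. Named genes were the 12 largest common rises and falls kept with array set as a term and with no opposite probe set, the 4 largest each way not kept, up to 6 genes of each described list by adjusted p, 12 genes of damage response and metallothionein fixed by name, and up to 6 called genes each way in the later comparisons. The markers and clock members Alb, Col1a1, Nr1d1, Per1, Per2, Per3, Arntl, Clock, Saa2, Tubb2a and Tubb3, and the genes apart from all untreated arrays that the rule does not give, were named after their values were seen. Alternatives were the scaling, brightness filter, probe set rule, arrays in the fit, replicate block, array weights, array set, arrays marked as female-typical by Cyp2b9 alone and leaving out each array. Promoter windows come from RefSeq on GRCm38.p6. Figures were drawn with matplotlib 3.10.9.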

Additional observations from a re-analysis of the deposited data

Results flagged for a closer look

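In 115 groups of the 4 late arrays, 1 per gene, 7 held an array far from the other 3, where chance flags about 1 in 20 groups. WT 48 h replicate 2 stood apart for Dnajb9 (5.25, others 4.51 to 4.57), Nr2f2 (4.04, others 3.31 to 3.43) and Ddb1 (7.88, others 7.97 to 7.99). WT 48 h replicate 1 stood apart for Col3a1 (5.42, others 5.12 to 5.15) and Hsp90b1 (7.52, others 8.12 to 8.20). WT 24 h replicate 1 stood apart for Orm2 (7.78, others 6.56 to 6.73) and Kcnj9 (4.01, others 4.48 to 4.49). Fkbp5 differed between the late times, by -1.43 at 48 h against 24 h.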

How the results depend on the processing

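Late against untreated liver gave 1235 calls. It gave 723 with only the groups compared in the fit, 240 with array set as a term, 208 with the Cyp2b9 split added to it and 52 against Aag untreated replicates 1 and 2. It gave 1227 with median centring, 1434 as deposited, 1804 with no brightness filter, 1190 with the mean of probe sets and 901 with array weights, whose estimation stopped short of its convergence tolerance. Array set as a term left 192 at 24 h, 194 at 48 h and 96 common to both. The 2 criteria for common genes chosen after seeing the data left 168 and 27. As deposited, late against early gave 28 and 48 h against 24 h gave 0. Leaving out 1 array gave 864 to 1175 for late, 220 to 851 at 24 h, 305 to 820 at 48 h, 194 to 592 common, 24 to 547 late against early and 0 to 1 between 48 h and 24 h.

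Replicate numbers did not pair the samples, with correlations from -0.36 to 0.19. With the replicate block 1042 genes passed in late against untreated, 45 in late against early, 0 between 48 h and 24 h and 0 between genotypes. Calls ended under the block for Fbp1, Igfbp1, Plk3 and Ddb1 in late against untreated, for Papss2, Apcs, Manf and Hspa5 in late against early, and for Fkbp5 in 48 h against 24 h (adjusted p = 0.0888).

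Directions turned with the mean of probe sets for Cpt2 (-0.0022). They turned with array set as a term for Csnk1d (-0.12), Klf9 (-0.29), Igfbp1 (0.62) and Ddb1 (0.059), and with the Cyp2b9 split added these were -0.023, -0.11, 1.01 and 0.054. Against Aag untreated replicates 1 and 2 they turned for Mrm3 (-0.35), Pip4k2c (-0.19), Cry1 (0.18), Zbtb16 (-0.10), Tdo2 (-0.089), Klf9 (-0.27), G6pc (0.12), Pcx (0.10), Igfbp1 (0.58), Saa4 (-0.0030), Il6ra (-0.0096), Crp (0.029) and Ddb1 (0.16), and for Nr1d1 (-0.43), which the rule did not name. The cause was not tested. Signal over background limits Mpg, Polb, Ccng1, Arntl, Clock and Per2, which were too dim to be tested.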
